A study of Homo sapiens with 20 samples.

Results

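Genes expressed in all 5 cell lines of the series were compared for how their response to torkinib in the liposarcoma line 94T778 differed from the response of 4 other cancer lines. Torkinib (PP242) blocks the ATP site of the MTOR kinase. RNA of established human lines was sequenced untreated or after 72 h with torkinib: 94T778 (well differentiated liposarcoma), A375 and SKMEL28 (melanoma), and SKBR3 and AU565 (breast cancer), with 2 libraries in each of 10 groups. 94T778 received 10 µM, SKBR3 0.8 µM and the remaining lines 4 µM each, and the culture time of untreated cells is not stated. The series asks how MTOR inhibition alters the expression of genes for DNA repair. Doses were chosen, per the labels, to stop cycling without loss of viability, and the medium differed as well: 94T778 and SKBR3 grew in RPMI, AU565 in RPMI with pyruvate and bicarbonate, A375 in DMEM and SKMEL28 in MEM. No group carried an engineered allele. 94T778 is a single line, so lineage, dose and medium cannot be told apart in any difference below.

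For each gene the change in a line is the log2 ratio of torkinib over untreated, and the difference is the change in 94T778 minus the mean of the changes in the other 4 lines, each line weighted equally. A positive difference therefore means a larger rise or a smaller fall in 94T778. Members were the genes whose mean level over the 4 libraries of a line was at least 5 CPM (reads of a gene scaled to a common library size) in each of the 5 lines, 8598 of 16698 genes tested. Just inside that limit stood SMAD4, with a lowest line mean of 5.005 CPM, and just outside stood CLDN15 at 4.99 CPM. Because the mean covers untreated and torkinib libraries, a gene can pass in a line only through the group where it is high. In 94T778 HOMER2, HES1 and ARSG passed through the torkinib libraries, and ID3 and NEDD9 through the untreated ones. LGALS1 passed in the breast lines through the untreated libraries. Wide differences of such genes rest in part on levels under the limit. A gene was called when edgeR's quasi-likelihood test gave a Benjamini-Hochberg adjusted p under 0.05 over all 16698 genes.

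MTOR acts in a pair of complexes that tie nutrient and growth factor signals to biosynthesis. Complex 1 promotes translation, in particular of the messengers of ribosomal proteins and translation factors, which begin with a pyrimidine tract, and it raises glycolysis, lipid and nucleotide synthesis while holding back autophagy and lysosome genes. Well differentiated liposarcoma is a fat-lineage tumour with amplified 12q genes such as MDM2 and CDK4.

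The libraries held 4040023 to 9737903 counted reads. MDM2 stood at 6160 to 7066 CPM of library totals in 94T778, while the mature fat cell gene ADIPOQ had no count there and FABP4 was at most 5.11 CPM. Markers of melanocytes were present only in part in A375. There SOX10 stood at 601 to 670 CPM, but PMEL at 7.06 CPM or less, against 3735 or more in SKMEL28. The blood cell gene PTPRC stood at 11.7 to 17.97 CPM in 94T778, and the summed blood and endothelial markers at 13.7 to 19.9 CPM there, while that sum was 18.9 and 23.3 CPM in untreated SKBR3 and 149.9 and 158 with torkinib. The part of these markers in the results was not tested. In A375 untreated replicate 1, 43 of 44 genes that were silent in torkinib-treated A375 and abundant in 94T778 had counts, at a median of 2.02% of the 94T778 level, against 0.0613% in the other untreated library. The untreated SKBR3 replicates differed most from each other (chi-square per gene 12.2, against 1.37 to 3.37 in the other groups). Without A375 untreated replicate 1 the members called were 2020 higher and 1673 lower, and without SKBR3 untreated replicate 1 or 2 they were 2315 and 1799 or 2219 and 2005. The labels do not call the replicates separate cultures; the p-values rest on the spread between libraries, which may be technical. In bulk RNA fewer cells of a kind and less RNA per cell cannot be told apart.

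Of the 8598 members 2469 rose and 2725 fell in 94T778 with torkinib (60.4%), where 23.8% of all genes tested rose and 23.8% fell. In the other lines the shares of all genes tested that rose and fell were 18.5% and 24.3% (A375), 20.4% and 23.7% (SKMEL28), 24.6% and 26.7% (SKBR3), and 26.9% and 28.6% (AU565). For 3780 members (44%) the change differed from the mean of the other lines. The difference was called higher for 2063 members and lower for 1717, where 29.8% of all genes tested were called in either direction (16.6% higher and 13.2% lower). The median difference over members was 0.03 (interquartile range -0.25 to 0.33), and 336 members were called at a difference of at least 1 and 164 at -1 or below. Scaled by library totals alone the median moved to 0.13 and the split to 2653 higher and 1251 lower, so the split of calls over all members depends on the scaling.

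A difference from a mean can come from a single line. Members were therefore also compared with each line alone, and 642 were called in the same direction against the mean and against each of the 4 lines, 339 higher and 303 lower. They are described below as set apart. For single lines the background of calls over all genes tested, higher and lower, was 17.7% and 13.8% for A375, 13.2% and 11.3% for SKMEL28, 19.8% and 17.7% for SKBR3, and 19.1% and 15.4% for AU565. On library totals alone, all of the 339 and 203 of the 303 still met the rule. Of all genes tested 4.68% met this rule (2.61% higher and 2.08% lower), against 3.94% and 3.52% of members. Among the 339, 290 rose in 94T778 and 43 had no call there, of which 39 fell in all 4 other lines. Among the 303, 228 fell in 94T778, and 52 of the 59 with no call there rose in all 4 other lines. In 24 members the direction was opposite, with a rise in 94T778 and a fall in each other line, and 28 members fell in 94T778 and rose in each other line. These opposite directions were counted over members only, with no share over all genes tested.

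**Figure D1:**
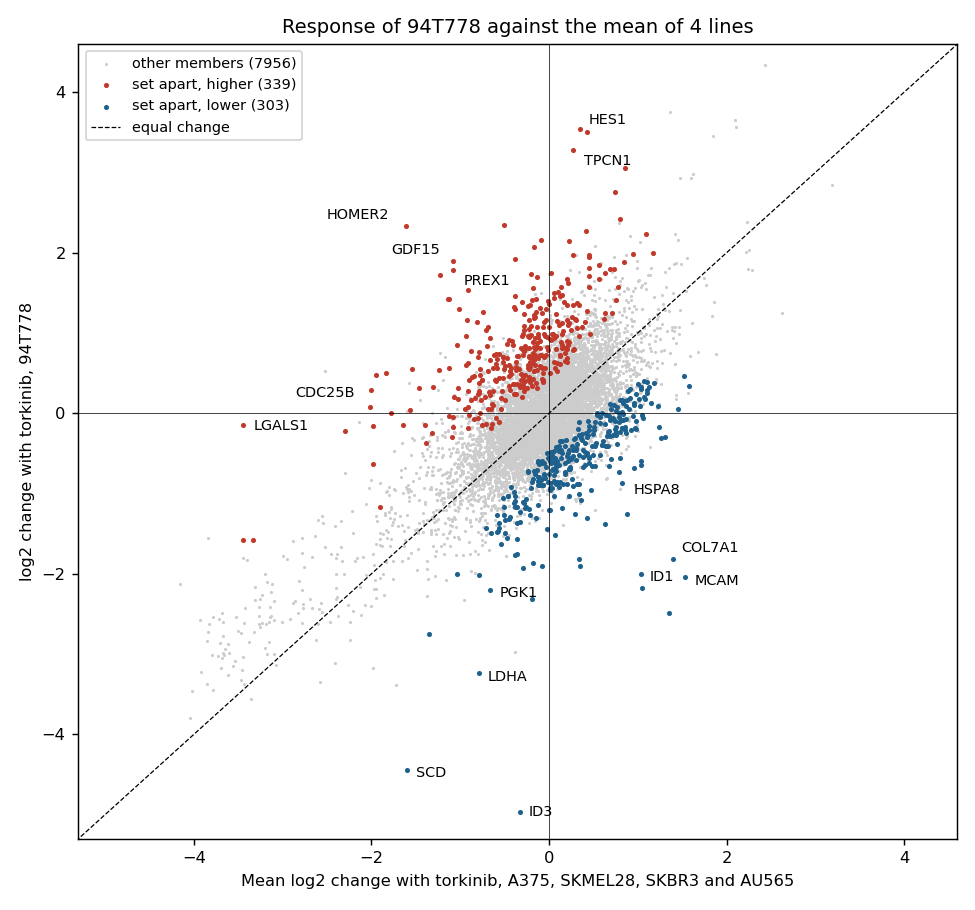
Each point is 1 of 8598 members; the x axis is the mean log2 change with torkinib in A375, SKMEL28, SKBR3 and AU565 and the y axis the log2 change in 94T778, with the dashed line at equal change. The 339 members set apart as higher lie above the line and the 303 set apart as lower lie below it, with ID3, SCD and LDHA lowest on the y axis among the genes labelled.

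Glycolysis genes had lower differences, falling furthest in 94T778 for the members named below. Of the 19 glycolysis members 18 fell in 94T778, where the median change over the list was -1.32, against a median of -0.38 for A375, -0.82 for SKBR3, -0.95 for AU565 and -1.10 for SKMEL28. The difference was called lower for 14 of the 19 and higher for none, with a median of -0.71 beside 0.03 over all members. 6 members were set apart from each line: LDHA, HK2, PGK1, PGAM1, TPI1 and PFKP. In 12 of the 19 (63.2%) the change in 94T778 was the lowest of the 5 lines, as it was in 17% of all members.

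LDHA encodes the lactate dehydrogenase subunit that turns pyruvate into lactate. Its level was 4018 and 3948 CPM (normalised) in the untreated 94T778 libraries and 432 and 411 with torkinib. In A375 the untreated libraries stood at 633 and 601 and the torkinib libraries at 941 and 1023. SKMEL28 went from 3101 and 3168 to 1165 and 1123, SKBR3 from 1514 and 1665 to 824 and 805, and AU565 from 1527 and 1625 to 591 and 585. Untreated 94T778 was thus the highest of the 10 groups and treated 94T778 the lowest, with no overlap between treated and untreated libraries in any line. LDHA fell 9.45-fold in 94T778 and rose in A375, and its difference was -2.45 ± 0.08 (SE; edgeR adjusted p = 2.28e-22).

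PGK1 is the phosphoglycerate kinase that makes ATP in glycolysis. It stood at 1356 and 1327 CPM without the drug in 94T778 and at 298 and 285 with it. Its change was -2.20 in 94T778, -1.34 in SKMEL28 and -0.97 in AU565, and it was not called in A375 (-0.17) or SKBR3 (-0.15). The difference was -1.54 ± 0.09 (edgeR adjusted p = 3.67e-16). PGAM1, the phosphoglycerate mutase, fell from 672 and 615 CPM to 92.2 and 99.3 in 94T778, a change of -2.75, and in the other 4 lines the changes were -0.79 to -1.90. HK2, a hexokinase that commits glucose to the pathway, went from 101 and 102 CPM to 26.5 and 27.1 in 94T778, while it rose in A375 from 122 and 117 to 173 and 168.

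Hypoxia response genes, many of which share the transcription factor HIF1 with glycolysis, were mixed: 10 of 18 members had a lower difference and 4 a higher one (median -0.35). BNIP3, a mitochondrial receptor for autophagy, went from 194 and 181 CPM to 39.6 and 36.2 in 94T778. It changed by -1.36 in SKMEL28 and 0.54 in SKBR3 and had no call in A375 (0.11) or AU565 (-0.08), and its difference was -2.11 ± 0.11. P4HA1, a collagen prolyl hydroxylase subunit (-1.07), and EGLN1, an oxygen sensor that marks HIF for degradation (-0.90), were also lower. VEGFA, the angiogenic growth factor, went the other way: it rose in 94T778 from 100.5 and 113 CPM to 182 and 176 and fell in A375 and SKMEL28, but it rose in AU565 too (1.03) and was not set apart.

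DNA before the starts of LDHA, PGK1 and BNIP3 is shown because HIF1, which drives these genes in low oxygen, binds the core ACGTG. The sequences are the 250 bases before a RefSeq start (build GRCh38.p14), 5′ to 3′ on the gene's strand, with matches to ACGTG on either strand in capitals; where CACGTG reads the same on both strands, all its bases are capitals and the match overlaps the E-box.
LDHA, chr11:18394313-18394562, strand +: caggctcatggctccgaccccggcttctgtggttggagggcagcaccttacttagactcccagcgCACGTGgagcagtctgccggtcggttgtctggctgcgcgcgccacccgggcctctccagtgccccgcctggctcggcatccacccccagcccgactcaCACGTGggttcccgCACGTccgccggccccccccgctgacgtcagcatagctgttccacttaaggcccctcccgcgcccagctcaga
PGK1, chrX:78103998-78104247, strand +: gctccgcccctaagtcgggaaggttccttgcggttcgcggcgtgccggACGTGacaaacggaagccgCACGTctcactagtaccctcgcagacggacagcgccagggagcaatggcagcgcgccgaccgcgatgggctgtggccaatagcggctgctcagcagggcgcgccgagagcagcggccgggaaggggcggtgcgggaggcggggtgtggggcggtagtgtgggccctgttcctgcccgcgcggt
BNIP3, chr10:131981924-131982173, strand -: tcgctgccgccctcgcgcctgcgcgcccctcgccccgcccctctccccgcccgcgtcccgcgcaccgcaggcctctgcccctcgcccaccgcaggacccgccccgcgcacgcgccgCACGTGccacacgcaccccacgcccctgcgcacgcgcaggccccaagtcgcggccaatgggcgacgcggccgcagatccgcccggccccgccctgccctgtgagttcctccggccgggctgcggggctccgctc
LDHA had 3 such stretches before this start and none before its other listed start, PGK1 had 2 and BNIP3 1. HK2 had 2 before each of its listed starts and PGAM1 none. Among 40 starts of the glycolysis members 37.5% held the core within 250 bases before to 50 after the start, against 27.5% of the starts of all members and 21.4% of all 35116 starts in the table. For members set apart as lower the share was 36.5% of 323 starts, and for those set apart as higher 24.4% of 439. Other motifs were counted as well. The E-box was found at 15.2% (lower), 8.2% (higher) and 10.3% (all members) of starts. A sterol element was found at 1.86%, 3.19% and 1.05%, with none before the start of SCD. An antioxidant element was found at 11.5%, 15.9% and 14.8%, and an amino acid response element at 1.24%, 1.82% and 1.86%. Differences between these shares were not tested. A match of 5 letters is a description of sequence and not a bound site, and these data hold no binding measurement.

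Ribosomal protein genes had lower differences throughout. All 48 members had a lower difference in 94T778, with a median of -0.78, and 36 of the 48 were set apart from every line. In 94T778 itself 12 members rose, 13 fell and 23 had no call, with a median change of 0.04. In the other lines 42 to 48 of the 48 rose, with median changes of 0.53 in SKBR3, 0.65 in A375, 0.74 in AU565 and 1.38 in SKMEL28. For 46 of the 48 the change in 94T778 was the lowest of the 5 lines (95.8%, beside 17% of all members).

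The list's share of all counts shows the same on a scale with no normalisation factor. It was 2.74% and 2.67% without and 3.05% and 2.96% with the drug in 94T778. A375 went from 4.43% and 4.39% to 7.24% and 7.01%, and SKMEL28 from 2.10% and 2.05% to 5.21% and 5.26%. The breast lines went from 7.42% and 7.05% to 10.6% and 10.4% in SKBR3 and from 4.68% and 4.92% to 8.09% and 8.22% in AU565. Treated and untreated libraries did not overlap in any line, and the step in 94T778 was the smallest.

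RPS12, a small-subunit protein, shows the pattern in single libraries: in 94T778 435 and 412 CPM without and 428 and 382 with the drug, which overlap. In A375 the levels were 593 and 594 untreated and 1143 and 1130 treated, and in SKMEL28 554 and 574 against 1418 and 1430. SKBR3 went from 1090 and 1103 to 2161 and 2012 and AU565 from 857 and 868 to 1683 and 1803. Every treated library of the other 4 lines was thus above the untreated ones of its line, while 94T778 was not called (-0.06). The difference was -1.12 ± 0.08 (edgeR adjusted p = 3.62e-13). RPS6, whose protein is the classic phosphorylation readout of MTOR complex 1, stood at 1275 and 1276 CPM and then 1327 and 1194 in 94T778, with changes of 0.81 to 1.58 in the other lines. Reads that aligned to more than 1 place were not counted, so levels of ribosomal genes with processed pseudogenes are uncertain.

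Messengers whose translation depends most on MTOR complex 1 start with a C followed by an unbroken run of C and U, the 5′ terminal oligopyrimidine tract. The 30 bases around the RefSeq start, 10 before and 20 from the start on, are shown for 5 ribosomal members and for EEF1B2 (1 of its listed starts), EIF2S3 and FBL, which are described below, with the pyrimidine tract in capitals, as DNA.
RPS12, chr6:132814559-132814588, strand +: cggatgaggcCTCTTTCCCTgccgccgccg
RPS6, chr9:19380217-19380246, strand -: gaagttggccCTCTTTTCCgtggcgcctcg
RPL10A, chr6:35468391-35468420, strand +: aagacatgctagtCTCTTTTCCggttagcg
RPS24, chr10:78033853-78033882, strand +: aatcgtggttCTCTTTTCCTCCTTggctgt
RPS3, chr11:75399508-75399537, strand +: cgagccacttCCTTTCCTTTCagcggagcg
EEF1B2, chr2:206159885-206159914, strand +: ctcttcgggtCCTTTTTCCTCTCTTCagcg
EIF2S3, chrX:24054946-24054975, strand +: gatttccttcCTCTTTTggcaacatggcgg
FBL, chr19:39846360-39846389, strand -: cgcctgcgctCTTTTCCacgtgcgaaagcc
A tract was counted where a C lay at most 5 bases from the annotated start and at least 4 C or T followed. Each window shown has a tract. None was found at the listed starts of the ribosomal RPL6, RPL15, RPL27, RPS4X and RPS15. The other listed start of EEF1B2 and the start of POLR1A, described below, had none either. A tract was present at 73.5% of the 49 starts listed for 37 ribosomal members, against 21.1% of all 35116 starts and 22.7% of the starts of all members. Members set apart as lower that are not on the ribosome list had one at 30.8% of 289 starts, and members set apart as higher at 21% of 439. This search was chosen after the ribosomal values were seen, and an annotated start can lie a few bases from the one used in these cells.

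Translation factors and ribosome assembly genes followed in part. The difference was lower for 17 of 34 translation factors (median -0.24) and higher for 2, and lower for 12 of 29 ribosome biogenesis genes (median -0.22) and higher for 1. PABPC1, the poly(A)-binding protein, went from 1424 and 1359 CPM to 1189 and 1211 in 94T778, whereas in SKMEL28 it rose from 1176 and 1262 to 2693 and 2709. It rose in all 4 other lines, by 0.55 to 1.15, and its difference was -1.07 ± 0.08. EEF1B2, an exchange factor of elongation factor 1, was not called in 94T778 (0.18) and rose by 0.73 to 1.41 elsewhere. EIF3H, EIF3E and EIF3D, subunits of initiation factor 3, and EIF2S3 were set apart as lower too, with differences of -0.78, -0.70, -0.61 and -0.80. EIF2B5, a subunit of the exchange factor for initiation factor 2, was the translation factor set apart as higher, at 0.75. Among assembly genes, POLR1E and POLR1A, subunits of RNA polymerase I, had differences of -1.16 and -0.68, and FBL, the methyltransferase of ribosomal RNA, -0.97.

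**Figure D2:**
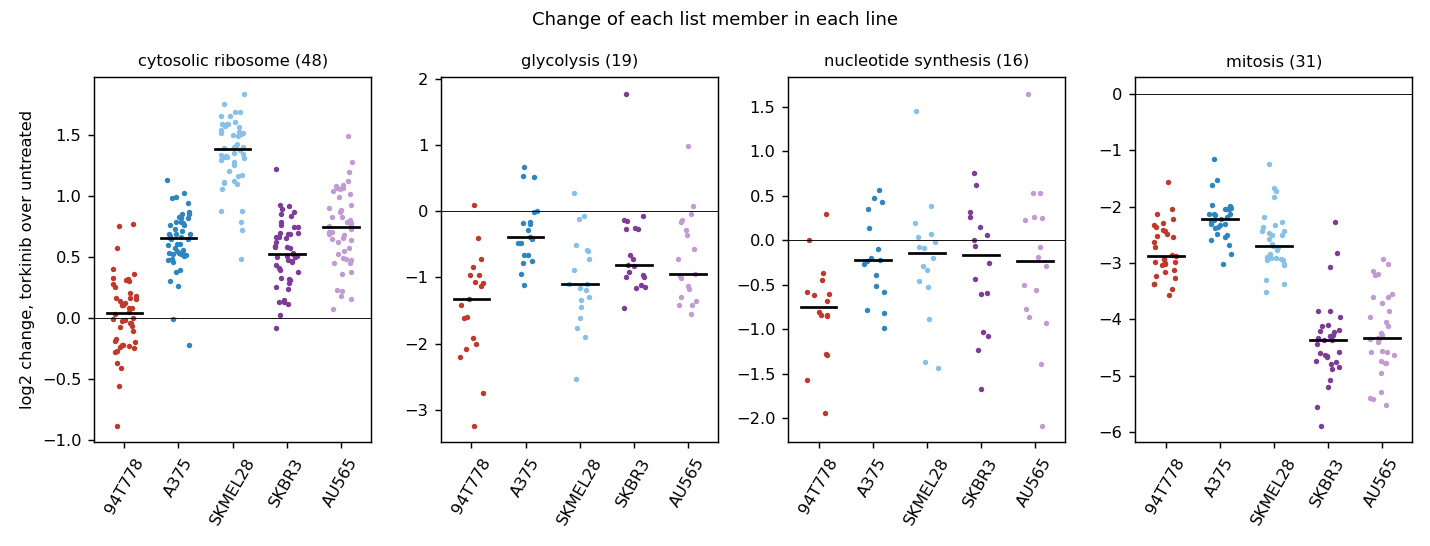
Points are the log2 changes (torkinib over untreated) of the members of 4 lists in each line and black bars are medians; the y scales differ between panels. The ribosomal medians are 0.04 in 94T778 and 0.53 to 1.38 in the other lines, glycolysis and nucleotide synthesis are lowest in 94T778, and mitosis lies between the melanoma and breast lines.

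Nucleotide synthesis genes had lower differences in 94T778. None of the 16 members was higher and 9 were lower, with a median of -0.63, and the median difference against single lines was -0.62 for A375, -0.55 for SKMEL28, -0.59 for SKBR3 and -0.60 for AU565. Set apart were 5 genes of purine synthesis that sit between ribose and inosine monophosphate (PRPS1, ADSL, ATIC, PFAS and PAICS) and IMPDH2, which leads to guanine nucleotides. PRPS1, which makes the activated ribose that starts the pathway, went from 131 and 123 CPM to 45.7 and 39.8 in 94T778, and in SKBR3 from 55.9 and 64.4 to 64.0 and 61.6. The treated 94T778 libraries lay within the range spanned by treated A375 (36.3 and 39.8) and SKMEL28 (49.3 and 48.1), whereas the untreated 94T778 libraries were the highest of all groups. ADSL, adenylosuccinate lyase, fell from 95.5 and 101 CPM to 56.9 and 54.7, with a change of -0.81 in 94T778 and 0.14 to 0.53 elsewhere. IMPDH2 rose in all 5 lines, from 192 and 190 to 226 and 240 CPM in 94T778 (0.29), and by 0.56 in A375, 0.75 in SKBR3, 1.45 in SKMEL28 and 1.65 in AU565. Of 7 pentose phosphate members, which supply that ribose, 2 had a lower and 3 a higher difference.

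Chaperones were lower for 12 of 22 members and higher for 4 (median -0.27). HSPA8, the constitutive HSP70, gave the largest difference of this list: 2603 and 2480 CPM in untreated 94T778 against 1385 and 1395 with torkinib, and a rise in each other line, as from 819 and 759 to 2106 and 1962 in A375. Its difference was -1.70 ± 0.10 (edgeR adjusted p = 8.81e-16). HSPD1, the mitochondrial chaperonin (-0.67), and CCT2 (-0.60) and CCT3 (-0.58) of the cytosolic chaperonin were set apart as lower. The stress-inducible HSPA1A (0.69) and HSPA1B (0.35), a pair of near-identical copies whose reads can be misassigned, and BAG3 (0.62) were higher.

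SCD fell in every line and furthest in 94T778. SCD, the desaturase that makes oleate, went from 852 and 868 CPM to 38.4 and 40.6 in 94T778, a 21.8-fold drop. The treated levels elsewhere were 361 and 379 in A375, 370 and 361 in SKMEL28, 233 and 265 in SKBR3 and 261 and 265 in AU565. Treated 94T778 was thus far below each other treated line, although its untreated level lay within the range of the other lines (588 to 1534 CPM). The difference was -2.84 ± 0.10 (edgeR adjusted p = 3.95e-22). ACSL3, which activates fatty acids, and ACACA, the carboxylase that commits acetyl-CoA to them, were also set apart as lower, at -1.09 and -0.86. The list of 16 as a whole split evenly, with 6 higher and 6 lower, and FASN, the synthase itself, fell in 94T778 (-1.41), further in AU565 (-1.87), and rose in SKMEL28 (0.43).

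Cholesterol synthesis was lower in 14 of 22 members (median -0.44) and higher in 2, and none was set apart. The median difference was -0.67 against A375, -0.57 against SKMEL28, -0.61 against SKBR3 and 0.14 against AU565. DHCR7, a late enzyme of the pathway, went from 105 and 106 CPM to 11.4 and 12.1 in 94T778 and from 299 and 311 to 42.4 and 41.3 in AU565. HMGCS1, an early enzyme, changed by -1.96 in 94T778 and by -1.66 in AU565.

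Fatty acid oxidation had higher differences, with 8 of 14 members higher and 1 lower (median 0.43). In 94T778 itself 3 of the 14 rose and 4 fell (median change -0.14). ACADVL, the first enzyme on very long chains, rose from 193 and 184 CPM to 532 and 532 in 94T778, and its change was 0.45 in SKMEL28, 0.11 in A375, -0.06 in AU565 and -0.27 in SKBR3. CPT1A, the gate for fatty acids into mitochondria, rose from 42.7 and 44.7 to 79.4 and 89.7 CPM in 94T778 and changed by -0.50 to 0.24 elsewhere. Both were set apart, with differences of 1.44 and 1.08. PNPLA2, the lipase that opens lipid droplets, rose from 70.1 and 56.7 to 192 and 214 CPM in 94T778 (difference 1.47). CEBPB, an early factor of fat cell differentiation, rose there from 23.2 and 20.01 to 86.2 and 77.9 (2.30), and both were set apart. PNPLA2 also rose in A375 (0.57) and SKMEL28 (0.91), and it fell in SKBR3 (-0.52). CEBPB, which is on the ATF4 list as well, rose in SKMEL28 (1.21) and fell in A375 (-0.56), SKBR3 (-1.16) and AU565 (-1.01). Both belong to the fat cell and lipid droplet list, of whose 7 members 3 had a higher difference and none a lower one (median 0.10), while in 94T778 itself 3 rose and 2 fell (median change -0.10). The mature fat cell genes were not members. FABP4, the fatty acid carrier of fat cells, stood at 4.33 and 5.11 CPM of library totals in untreated 94T778 and at 0.266 and 0 with torkinib. The summed fat cell and lipid droplet list moved from 495 and 476 CPM of library totals to 606 and 612 in 94T778.

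Outside the lists, the members set apart as lower by the widest margin were of several kinds. ID3 and ID1 are inhibitors of basic helix-loop-helix factors and textbook targets of BMP signalling. ID3 went from 19.5 and 17.2 CPM to 0.758 and 0.378 in 94T778, the widest difference of all set-apart members in size (-4.64 ± 0.35, edgeR adjusted p = 5.2e-13). It also fell in SKMEL28, from 70.4 and 57.5 to 12.4 and 11.9, and rose in A375 from 7.12 and 7.04 to 19.96 and 16.4. ID1 went from 20.5 and 20.5 to 4.93 and 5.29 in 94T778 and rose in A375, SKBR3 and AU565, the last from 7.23 and 6.72 to 64.1 and 64.2. Each treated 94T778 library was below each untreated one for both genes, while the direction varied among the other lines. In treated 94T778 ID3 rests on few reads.

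NEDD9, a docking protein of focal adhesions, went from 18.6 and 18.5 CPM to 3.03 and 3.53 in 94T778 and rose in SKBR3 from 48.2 and 54.7 to 328 and 359. MCAM, a cell adhesion molecule known from melanoma, went from 46.8 and 44.4 to 9.86 and 12.2, while it rose in SKBR3 (3.09) and AU565 (3.30) from levels of 5.90 to 12.2 CPM. COL7A1, the collagen of anchoring fibrils, went from 190 and 242 to 68.2 and 53.9 in 94T778 and rose in all 4 other lines, by 0.76 to 2.96. INPP4B, a phosphatase of the PI3K pathway, had a difference of -3.23, PRKCE, a protein kinase C, of -2.25, and PLCB4, a phospholipase C, of -2.15. For NEDD9, MCAM, INPP4B and PHLDB1 the widest gaps were with the breast lines, where the genes rose, and for all 4 the difference from A375 and from SKMEL28 was called as well. The other set-apart genes with the widest negative differences were SLC26A2, a sulfate transporter (-2.01), the transcript KIAA0114 (-1.82) and TTYH3, a chloride channel (-1.73).

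The 24 members that rose in 94T778 and fell in each of the other lines are shown by 6 examples with the widest differences. HOMER2, a scaffold protein of calcium signalling, went from 3.25 and 2.35 CPM to 15.9 and 12.5 in 94T778. In A375 it went from 16.9 and 19.1 to 7.47 and 7.59, in SKMEL28 from 21.9 and 24.1 to 10.4 and 10.0, in SKBR3 from 19.7 and 18.2 to 2.78 and 4.31, and in AU565 from 7.55 and 8.37 to 3.04 and 2.20. Untreated 94T778 was thus the lowest of the untreated groups and treated 94T778 the highest of the treated ones (difference 3.94 ± 0.25, edgeR adjusted p = 6.91e-15). PREX1, an activator of the GTPase RAC that responds to PI3K, went from 57.2 and 59.2 to 198 and 202 CPM in 94T778 with changes of -0.52 to -1.74 elsewhere. CDC25B, a phosphatase that drives entry into mitosis, rose slightly in 94T778, from 121 and 119 to 148 and 146, and fell by -0.88 to -3.42 in the other lines. SPSB1 and TRIM47, both of ubiquitin ligase families, rose by 1.53 and 1.30 in 94T778, and CDC42EP4, an effector of CDC42, by 0.51, and all 3 fell in each other line.

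Other set-apart members rose in 94T778 with mixed changes elsewhere. TPCN1, a cation channel of endosomes and lysosomes, went from 32.5 and 32.0 CPM to 340 and 283, a 9.67-fold rise, and changed by -0.33 to 0.67 in the other lines (edgeR adjusted p = 2.97e-20). ARSG, a lysosomal sulfatase, went from 3.25 and 3.70 to 42.3 and 36.5 and had a rise of 1.11 in SKMEL28. HES1, a repressor downstream of Notch, went from 3.59 and 1.68 to 36.5 and 24.9, whereas SKBR3 fell from 513 and 431 to 256 and 261. GDF15, a secreted stress protein, went from 18.1 and 14.97 to 58.8 and 64.6, while in A375 it fell from 30.9 and 33.7 to 3.20 and 1.90.

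LGALS1, a galectin typical of mesenchymal cells, is a different case, since its level held in 94T778 and fell elsewhere. It stood at 524 and 465 CPM untreated and 429 and 466 with torkinib in 94T778, where it was not called (-0.14). In the other lines it fell from 272 and 271 to 105 and 95.7 in A375, from 787 and 731 to 204 and 192 in SKMEL28, from 89.5 and 78.3 to 1.99 and 1.28 in SKBR3, and from 28.3 and 29.9 to 1.14 and 1.03 in AU565. The difference of 3.31 ± 0.12 thus rests on the falls in the other lines, which ranged from -1.43 to -5.70. PHLDA2, CAPS and KCNIP3 (differences 2.42, 2.96 and 2.56) rose in 94T778, and their widest gaps were with SKBR3, where they fell. The remaining genes with the widest positive differences were IMPA2, an inositol phosphatase (2.86), and SLC22A18, a transporter (2.54).

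**Figure D3:**
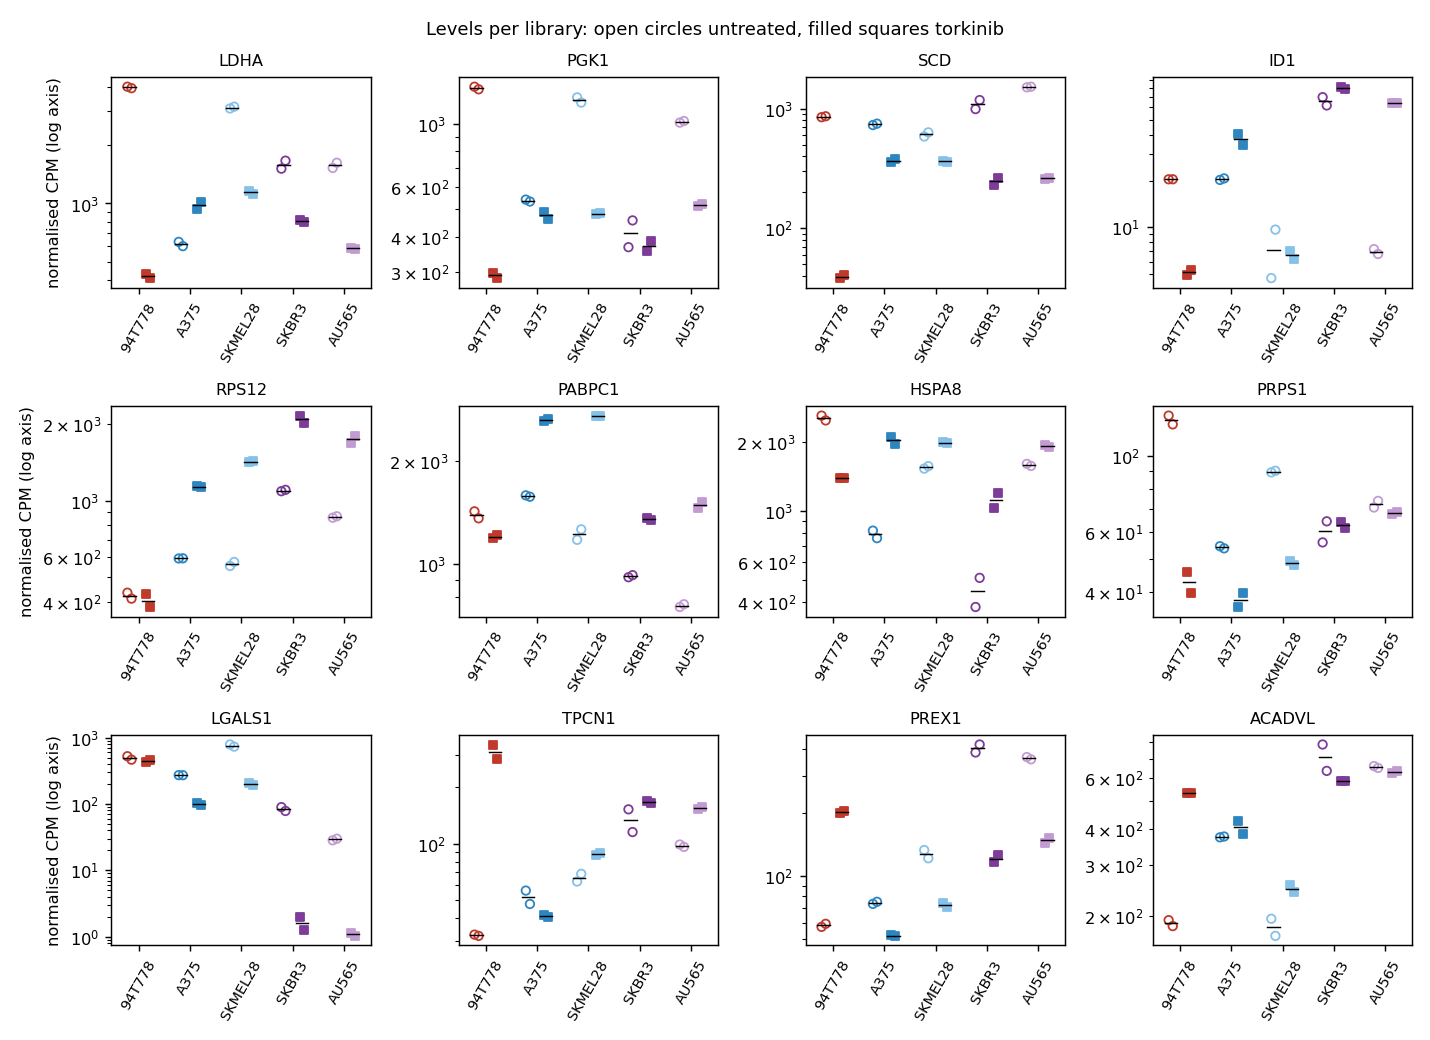
Normalised CPM per library on a log axis for 12 members, with open circles for untreated and filled squares for torkinib libraries and a bar at the mean of the 2. LDHA, PGK1, SCD and PRPS1 drop furthest in 94T778, RPS12 and PABPC1 rise in the other 4 lines but not in 94T778, LGALS1 falls in the other lines, and TPCN1, PREX1 and ACADVL rise in 94T778.

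Antioxidant genes had higher differences. Of 17 members of the NRF2 and glutathione list 12 had a higher difference and 1 a lower one (median 0.49), and the median was above 0 against each line (0.34 to 0.84). GPX4, the peroxidase that guards membranes against lipid peroxides, rose from 143 and 130 CPM to 273 and 251 in 94T778 and fell from 252 and 222 to 75.7 and 67.0 in SKBR3 (difference 1.60 ± 0.10). GSS, glutathione synthetase, and HMOX1, heme oxygenase, were set apart too, at 1.07 and 1.49. In 94T778 itself GSS was 1.21-fold higher with torkinib, while HMOX1 was 1.11-fold lower. Of the 17 members 10 rose and 3 fell in 94T778 (median change 0.34). SLC7A11, the cystine carrier, rose in 94T778 from 18.8 and 17.3 to 30.3 and 29.99 and fell in A375 from 274 and 267 to 48.3 and 54.0, but in AU565 it rose further (1.71), so it was not set apart.

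Of 36 lysosome members 13 were higher and 6 lower (median 0.05), with a median of -0.09 against A375 and 0.17 to 0.35 against the other lines, and 6 were set apart as higher: the proteases CTSD, CTSB and TPP1, the galactosidase GLB1, the proton pump subunit ATP6V0A1 and TFE3, a transcription factor of lysosome genes that MTOR complex 1 keeps in the cytoplasm. CTSD rose from 259 and 243 CPM to 472 and 527 in 94T778, by 0.44 in A375 and 0.39 in SKMEL28, and fell in both breast lines. TFE3 rose from 93.1 and 91.8 to 121 and 113 and fell in A375 from 91.0 and 91.7 to 43.0 and 41.5. GAA, the acid glucosidase, rose in SKMEL28 (1.61) and in 94T778 (1.60), and that difference was not called. Autophagy genes were higher for 11 of 30 and lower for 4 (median 0.18), with ATG7, which activates the conjugation of LC3, set apart (0.46). SQSTM1, a cargo receptor, rose in 94T778 from 418 and 410 to 861 and 819 CPM, and changed by 0.18 to 0.82 elsewhere.

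Mitosis genes differed in opposite directions from the breast and the melanoma lines. All 31 members fell in every line, with medians of -2.21 (A375), -2.70 (SKMEL28), -2.87 (94T778), -4.32 (AU565) and -4.36 (SKBR3). Against the mean 19 of the 31 had a higher difference and none a lower one (median 0.63). Against single lines 28 and 30 were higher when compared with SKBR3 and AU565, but 23 were lower and 1 higher when compared with A375, and 10 lower and 2 higher with SKMEL28. 94T778 thus stood between the breast and melanoma lines, and PRC1, a spindle midzone protein, was the member set apart: it went from 192 and 179 CPM to 64.1 and 60.9 in 94T778 and from 136 and 147 to 8.54 and 6.70 in SKBR3. CDC25C, called higher, had 2 counts in its lowest group. With the mean taken over the other 3 lines, the count of 19 became 7 without SKBR3 and 11 without AU565.

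Nuclear respiratory chain genes were split in the same way. Of 44 nuclear respiratory members 18 were higher and 1 lower (median 0.22), with a median difference of 0.71 against SKBR3 and 0.70 against AU565, but -0.28 against A375 and -0.07 against SKMEL28. Against the breast lines 35 (SKBR3) and 36 (AU565) of the 44 were higher and none lower, and against the melanoma lines 19 (A375) and 10 (SKMEL28) were lower and 1 and 3 higher. In 94T778 itself 31 of the 44 fell and none rose (median change -0.42). NDUFS8, a complex I subunit, was among the 13 with no call in 94T778 (55.7 and 54.2 CPM untreated, 53.5 and 53.9 treated). It fell in SKBR3 from 143 and 126 to 34.4 and 27.0 and in AU565 from 74.3 and 69.3 to 23.4 and 23.6. Of 21 citric acid cycle members 16 were higher and 1 lower (median 0.32), with median differences of 0.72 against SKBR3, 0.81 against AU565, 0.05 against A375 and 0.11 against SKMEL28. In 94T778 itself 12 of the 21 fell and 2 rose (median change -0.33). None of either list was set apart. IDH1 was the lower member of the citric acid cycle list (-1.02), which holds it although it encodes the cytosolic isocitrate dehydrogenase and not a cycle enzyme. It fell from 138 and 139 CPM to 40.4 and 44.6 in 94T778 and from 166 and 168 to 41.7 and 42.4 in A375. The count of 16 became 9 without SKBR3 in the mean, 8 without AU565 and 9 without 94T778 untreated replicate 2.

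**Figure D4:**
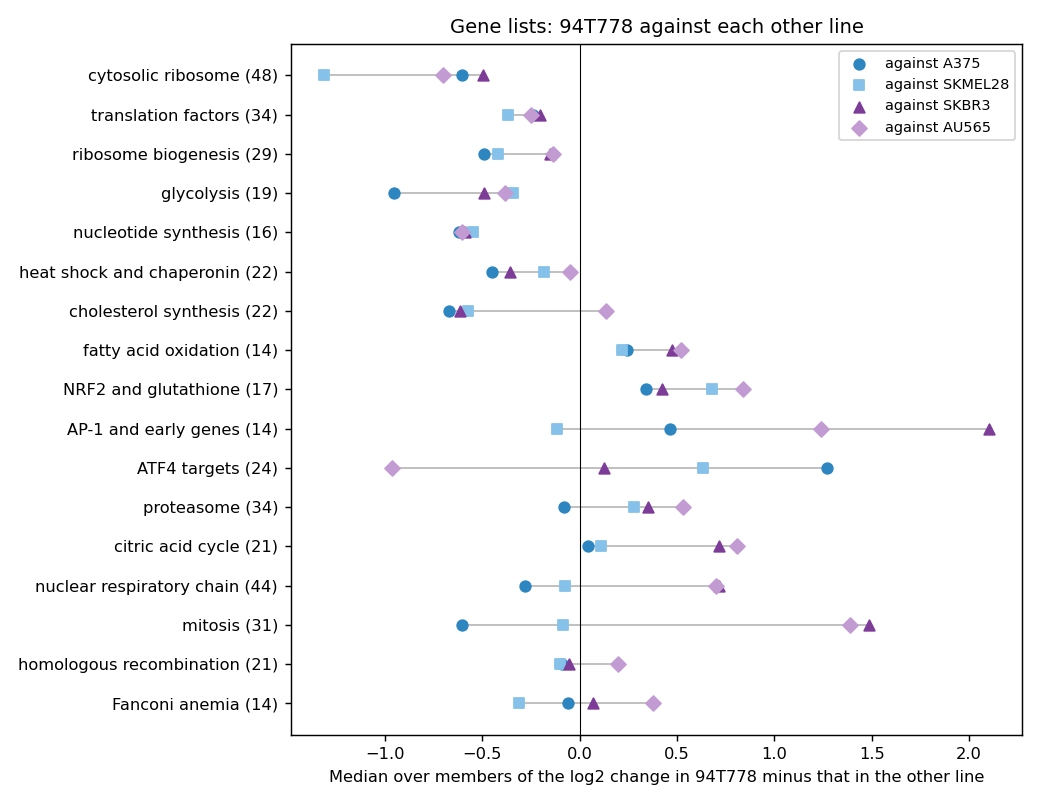
For 17 lists (members in brackets) each symbol is the median over members of the log2 change in 94T778 minus that in 1 other line, and grey lines join the 4 medians. Ribosome, glycolysis and nucleotide synthesis lie below 0 against each line, NRF2 and fatty acid oxidation above 0, and mitosis, respiration, ATF4 targets and cholesterol synthesis cross 0.

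Early response genes had higher differences against the mean but not against SKMEL28. Of 14 early response genes 8 had a higher and 1 a lower difference (median 1.00), and IER2 and IER3 were set apart. The median difference was 0.46 against A375, 2.10 against SKBR3 and 1.24 against AU565, but -0.12 against SKMEL28, where 6 were lower and 4 higher. The median change was 1.66 in 94T778 and 2.26 in SKMEL28. IER2 rose from 21.2 and 24.05 CPM to 160 and 147 in 94T778, and from 20.5 and 22.6 to 103 and 96.4 in SKMEL28, against a fall in SKBR3 from 498 and 460 to 395 and 395. JUNB, an AP-1 subunit, rose from 7.18 and 7.06 to 93.4 and 99.0 in 94T778 (3.75) and by 3.03 in SKMEL28, from which the difference was not called. EGR1 rose further in SKMEL28 (5.03) than in 94T778 (3.66). Among 9 feedback genes of the MAPK pathway, PHLDA1 and SPRY4 were set apart: PHLDA1 rose from 151 and 153 to 608 and 588 CPM in 94T778, and SPRY4, an inhibitor of receptor signalling, from 14.5 and 15.5 to 36.6 and 38.7, while it fell in A375 from 519 and 545 to 305 and 332. Of 6 NF-kB genes 4 were higher and none lower (median 0.68), with RELB at 1.15. Of 13 actin and SRF targets 9 were lower and 1 higher (median -0.42), with medians of -1.001 against SKBR3 and -0.66 against AU565 but 0.16 against A375 and -0.03 against SKMEL28. CALD1, an actin-binding protein, was lower against SKBR3 (-3.21) and AU565 (-2.24) and not called against A375 (0.16) or SKMEL28 (0.07). The 2 members set apart were ACTG1 and TPM2. ACTG1, cytoplasmic actin, went from 3173 and 2961 to 2275 and 2330 CPM in 94T778 and rose in each other line, and TPM2, a tropomyosin, also fell in 94T778 (-0.30) and rose in each other line.

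Amino acid stress genes (ATF4 targets) were higher for 13 of 24 and lower for 4 (median 0.36), but the median difference was 1.27 against A375 and -0.96 against AU565. DDIT4, an inhibitor of MTOR complex 1, fell in every line and least in 94T778: from 19.5 and 19.8 CPM to 7.20 and 5.92, against a fall from 353 and 378 to 15.3 and 15.8 in SKBR3 (difference 1.86 ± 0.20). Its untreated level was the lowest in 94T778. Among 19 members that form or regulate the MTOR complexes 2 were higher and 4 lower (median 0.03), and EIF4EBP1, the translation repressor that MTOR phosphorylates, was lower (-0.95). EIF4EBP1 was not set apart, since its difference from SKMEL28 was not called (-0.25). It fell in 94T778 (-1.76), SKMEL28 (-1.51), A375 (-1.24) and SKBR3 (-0.66) and was not called in AU565 (0.19). Of 15 insulin and FOXO genes 4 were higher and 5 lower. TXNIP, which restrains glucose uptake, rose from 161 and 157 to 1174 and 1343 CPM in 94T778 and still further in SKBR3 (3.87). FOXO3 was set apart as lower. It was not called in 94T778 (-0.18) or SKMEL28 but rose in SKBR3 (2.24), in AU565 and, by less, in A375.

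DNA repair genes are the subject of the series. Of 21 homologous recombination members 3 were higher and 3 lower (median 0.01, and -0.02 with median-ratio factors), and the median change was -0.96 in 94T778 against -0.72 to -1.27 elsewhere. TOPBP1, a scaffold of replication checkpoints, was set apart as lower (-0.52), with 97.4 and 94.3 CPM untreated and 62.8 and 60.6 treated. Of 14 Fanconi anemia members 4 were higher and 2 lower (median 0.04). Replicative polymerase genes were lower for 2 of 9 (POLE3 at -0.49 and POLA1 at -0.61) and higher for none, and error-prone ones were higher for 1 of 10, POLQ, and lower for 1, POLH. POLQ had 1 count in its lowest group, SKBR3 with torkinib, and its difference of 1.24 was no longer called without SKBR3 in the mean.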

How the data were processed

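RNA was extracted from 5 cell lines and sequenced in 20 libraries, 2 in each of 10 groups. The unit is the whole-number count of reads for each gene symbol, as deposited by the authors; HISAT2 2.04, HTSeq 0.6.1, limma 3.34.9 and build hg19 (GRCh37) are named in the submitters' processing notes. No source used here gives the strand setting or annotation. Overlapping and antisense genes therefore cannot be told apart, and members with near-identical copies are uncertain. Summary lines (reads in no feature, not aligned and so on) were left out, reads in no feature being 8.4% to 12.4% of uniquely aligned reads. Libraries held 4040023 to 9737903 counted reads.

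All 20 libraries were fitted together with edgeR 4.0.16 in R 4.3.3 (TMM factors, filterByExpr, a mean for each of 10 groups, quasi-likelihood test), which kept 16698 of 50775 features. Differences are contrasts of group means, with the standard error from the log2 value and its F statistic, and p-values were adjusted by Benjamini and Hochberg over all 16698 genes, with a threshold of 0.05. Levels are CPM on the TMM scale unless library totals are named. The fit was checked on simulated data. Alternatives were median-ratio (RLE) factors, DESeq2 1.42.0, limma-voom 3.58.1, no filter, a replicate block, each library and each comparison line left out, and other limits for members. Library totals without factors and TMM without ribosomal genes were added after seeing the data.

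Replicate numbers were not used as pairs in the main fit. The replicate differences of untreated and treated libraries of a line correlated at -0.10 to 0.28, with 0.28 in SKBR3 and 0.01 or less elsewhere. A low correlation cannot exclude that libraries of the same number were handled together. Named genes were the 15 members with the widest differences in each direction among those set apart, up to 6 in each direction with opposite calls, and the 4 with the smallest p in each list; other set-apart list members and contrasting genes were chosen after their values were seen. A few genes that this rule or the lists name are not reported here. The members and the 45 gene lists were chosen with earlier results of these data known. Starts and promoters are from RefSeq (GRCh38.p14), matched by symbol for 7073 of the 8598 members. No coordinate was converted between builds.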

Additional observations from a re-analysis of the deposited data

Results flagged for a closer look

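For the members given here edgeR's interaction test called the change in 94T778 different from the mean of the other 4 lines, and the changes themselves were called with opposite signs in 94T778 and in each other line. Those that rose in 94T778 and fell elsewhere were HOMER2 (difference 3.94), PREX1 (2.87), SPSB1 (2.45), CDC42EP4 (2.34), TRIM47 (2.31) and CDC25B (2.30). Those that fell in 94T778 and rose elsewhere were the collagen gene COL7A1 (-3.21), the chaperone HSPA8 (-1.70), the tropomyosin TPM2 (-1.60), the snoRNA host SNHG5 (-1.57) and the kinase ICK (-1.52).

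Reads outside the annotated features were not used in any comparison. Their share of uniquely aligned reads was 11.9% and 11.4% in the torkinib libraries of 94T778, above the 8.95% and 9.12% of its untreated libraries. The torkinib libraries were at 10.5% to 12.4% in A375 (untreated 9.12% to 9.41%), 9.94% to 9.99% in SKMEL28 (8.4% to 8.78%), 11.7% to 12.3% in SKBR3 (9.87% to 12.1%) and 12% to 12.1% in AU565 (8.98% to 9.36%). Torkinib and untreated libraries did not overlap in 4 lines and overlapped in SKBR3.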

How the results depend on the processing

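Counts of calls over all tested genes and over all members, and counts of members and of those set apart, kept within 1.5 times of the reported value in all 468 recalculations; the list counts given below are not among these, and those of mitosis and the citric acid cycle moved further. List medians were less stable, with 1184 recalculations classed as the same and 169 as moved. Of named genes, 6194 recalculations kept direction and side of the threshold, against 49 that lost the call, 25 that gained it and 2 that reversed. SPRED1 reversed, from -0.33 to 0.0703 (edgeR adjusted p = 0.763) without SKBR3 in the mean, which is the same as the mean of the 3 lines at 4 µM. With a replicate block, which the main fit leaves out, the members called were 2043 higher and 1698 lower, and 2105 and 1755 with the block within lines. DESeq2 called 1622 and 1624, limma-voom 2011 and 1745, and leaving out a library gave 1587 to 2315 and 1282 to 2005. Of the 339 and 303 members set apart, 237 and 269 met the rule with DESeq2. All 48 ribosomal members were lower in every setting but the mean without SKMEL28 (47), glycolysis ran from 13 to 15 and nucleotide synthesis from 9 to 11. The citric acid cycle count of 16 was 10 with DESeq2, 9 without SKBR3 in the mean, 8 without AU565 and 9 without 94T778 untreated replicate 2, and the mitosis count of 19 was 7 without SKBR3 in the mean and 11 without AU565. On library totals the list medians of pentose phosphate (0.08), fatty acid synthesis (0.07), p53 targets (0.02), replicative polymerases (0.00) and error-prone polymerases (0.01) turned positive. With 2 libraries per group, small differences of genes near 5 CPM could not be resolved.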

Other observations

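Lists that the text has not described differed in direction with the line compared. Of 20 cytosolic tRNA synthetases, which charge amino acids for translation, 7 had a higher and 6 a lower difference (median 0.02, and -0.01 with median-ratio factors), and RARS and DARS, for arginine and aspartate, were set apart as lower at -0.92 and -0.91. Against single lines the median was 0.37 for A375 and -0.64 for AU565. Of 32 mitochondrial ribosomal genes 5 were higher and 6 lower (median 0.01, and -0.01 with median-ratio factors), with medians of -0.20 against A375, -0.29 against SKMEL28, 0.32 against SKBR3 and 0.23 against AU565. Proteasome genes were mostly higher. Of the 34, 19 were higher and 2 lower (median 0.27), with a median of -0.08 against A375 and 0.28 to 0.53 against the other lines.

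Of 16 genes of the 12q amplicon that marks 94T778, 5 were higher and 4 lower (median 0.09). CCT2, a chaperonin subunit, fell from 2524 and 2493 CPM to 1712 and 1625 in 94T778 and was set apart as lower (-0.60), YEATS4 was set apart as higher (0.72), and MDM2 was not called (-0.09). Among 16 p53 targets 6 were higher and 4 lower, with a median of -0.63 against A375 and 0.21 to 0.49 against the other lines, and PLK3, a stress kinase, and TNFRSF10B, a death receptor, were set apart as higher beside GDF15, at 1.94 and 0.56. Of 12 interferon response genes 7 were higher and 1 lower (median 0.38), with none set apart. Against SKBR3 the median was -0.21, with 5 lower and 3 higher, and against the other lines it was 0.29 to 0.57.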
